A study of Mus musculus with 3 samples.

Results

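The 7 genes Shh, Ptch1, Smo, Hhip, Gli1, Gli2 and Gli3 carry the core of the Hedgehog pathway, and they are 7 of the 27998 genes in the deposited count matrices. They were chosen by name, as the ligand, the receptors and binding protein, and the transcription factors of the pathway, and all 7 were measured in every library. The data are single-cell RNA counts from mouse thymic lobes of C57BL/6 embryos at gestational day 13 to 13.5, with 1 droplet library for each of 3 genotypes. The control library is wild type. The library labelled Tbx1neo2/neo2 comes from embryos homozygous for an allele with a neomycin cassette in an intron of Tbx1, a mouse model of 22q11.2 deletion syndrome. The Foxn11089/1089 library comes from embryos homozygous for a small deletion in Foxn1, the transcription factor that directs thymic epithelial development. No treatment was given in any group, and the number of embryos pooled in each library is not given in the sources used here.

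In the Hedgehog pathway a secreted ligand such as Sonic hedgehog binds the receptor Patched, which otherwise holds the membrane protein Smoothened inactive. Freed Smoothened changes the GLI factors from repressors into activators of transcription, and Ptch1, Hhip and Gli1 are themselves activated targets, so that their RNA is used as a readout of signalling. In the embryonic neck and chest, Sonic hedgehog from pharyngeal and foregut epithelium patterns the pharyngeal pouches, the outgrowing airway and the mesenchyme around them, including the border between the thymus and parathyroid parts of the third pouch.

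Cells were sorted in silico by 4 markers. A cell was called Epcam-positive (epithelial), Pdgfra-positive (mesenchymal), Cdh5-positive (endothelial) or Ptprc-positive (hematopoietic) if it had at least 2 unique molecular identifiers (UMIs, each marking 1 captured RNA molecule) of that marker and at least 80% of its UMIs of the 4 markers on it. In the order control, Tbx1neo2/neo2 and Foxn11089/1089, there were 1980, 809 and 3974 Epcam-positive cells, 660, 1336 and 2201 Pdgfra-positive cells, 50, 93 and 105 Cdh5-positive cells, and 577, 298 and 313 Ptprc-positive cells, of 5932, 5516 and 11772 kept cells. Levels are counts per 1000000 UMIs (CPM), the UMIs of a gene summed over the cells of a gate and divided by all UMIs of that gate. Brackets hold exact 95% intervals, which cover counting error only. Because each genotype had only 1 library, no test was run, and a difference between genotypes cannot be told apart from a difference between libraries or dissections.

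The libraries differed in ways that touch every comparison of genotypes. The kept cells held 81885273, 136517727 and 202825405 UMIs, and the median Epcam-positive cell held 16582, 46025 and 20854 UMIs. Of the kept barcodes, 16 to 24 were shared between any pair of libraries, at most 0.435% of the smaller library. The targeted genes did not check the labels: Tbx1 had 1.39 CPM in the control library, 4.81 in the library labelled Tbx1neo2/neo2 and 5.43 in the Foxn11089/1089 library, and Foxn1 had 38.4, 34.6 and 76.5 CPM. These levels are over all kept cells, and the mix of cell groups differed between libraries, so they cannot check a genotype. Over all kept cells Tbx1 RNA was not lower in the library labelled Tbx1neo2/neo2, whose label is used below only as a name. In the Epcam gate of that library the thyroid marker list (Nkx2-1, Pax8, Foxe1, Hhex, Tg and Tshr) summed to 294 CPM, against 3.46 in the control and 5.25 in the Foxn11089/1089 library, and all 6 markers were detected in each library. The parathyroid list (Pth, Gcm2, Chga, Casr, Spp1 and Gata3) summed to 996, 7.57 and 8654 CPM, with Gcm2 at 0 in the library labelled Tbx1neo2/neo2. The epithelial list summed to 3079 to 4996 CPM in the Epcam gates and the mesenchymal list to 4079 to 5845 CPM in the Pdgfra gates, with every marker of each list detected in its own gate.

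All 7 genes are protein coding, and their places in GRCm38 (mm10) are as follows. Shh (ENSMUSG00000002633) lies on the minus strand at chr5:28456815-28467256, Ptch1 (ENSMUSG00000021466) on the minus strand at chr13:63508328-63573598, Smo (ENSMUSG00000001761) on the plus strand at chr6:29735503-29761365, and Hhip (ENSMUSG00000064325) on the minus strand at chr8:79965851-80058006. Gli1 (ENSMUSG00000025407) lies on the minus strand at chr10:127329882-127341974, Gli2 (ENSMUSG00000048402) on the minus strand at chr1:118834132-119053619, and Gli3 (ENSMUSG00000021318) on the plus strand at chr13:15463235-15730026.

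Ptch1 and Hhip are the target genes that differed both between libraries and between epithelial groups, so the sequences around their starts are shown. The promoter table held 5 of the 7 members by symbol, Ptch1, Smo, Hhip, Gli2 and Gli3. Each is the strand of the gene in GRCm38.p6, from RefSeq, with 250 bases before the annotated start in lower case and the 50 bases from the start on in capitals. The Ptch1 window is chr13:63565686-63565985, at a start inside the longer span of the gene given above, and the Hhip window is chr8:80057959-80058258.
Ptch1: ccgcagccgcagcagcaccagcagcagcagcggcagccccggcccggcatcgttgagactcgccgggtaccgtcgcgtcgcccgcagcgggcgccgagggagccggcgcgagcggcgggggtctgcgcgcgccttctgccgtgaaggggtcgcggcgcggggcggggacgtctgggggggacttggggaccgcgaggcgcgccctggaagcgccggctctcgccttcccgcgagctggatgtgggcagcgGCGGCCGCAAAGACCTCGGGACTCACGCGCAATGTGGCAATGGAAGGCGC
Hhip: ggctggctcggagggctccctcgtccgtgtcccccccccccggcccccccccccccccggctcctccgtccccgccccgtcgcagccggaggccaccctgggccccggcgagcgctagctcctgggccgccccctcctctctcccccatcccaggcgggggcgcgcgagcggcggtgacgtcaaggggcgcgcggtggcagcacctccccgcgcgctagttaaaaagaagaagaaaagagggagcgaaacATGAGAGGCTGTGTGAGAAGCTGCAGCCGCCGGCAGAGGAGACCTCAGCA
Both windows are rich in G and C, at 76.3% in Ptch1 and 73.7% in Hhip, against a median of 52.7% over 32851 promoter windows of the same length. The core of the GLI binding motif, CCACCCA or TGGGTGG on the other strand, was in neither window, nor in those of Smo, Gli2 and Gli3. It was in 9.30% of all windows. The absence says only that these letters do not occur in this stretch of these 5 genes.

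The ligand was found in 1 library and almost wholly in 1 gate. Shh, which encodes Sonic hedgehog, had 260 UMIs in Epcam-positive cells of the library labelled Tbx1neo2/neo2, or 6.11 CPM (5.39 to 6.90). No Shh UMI was found in the 1980 Epcam-positive cells of the control or in the 3974 of the Foxn11089/1089 library. By their exact intervals, these counts of 0 allow up to 0.109 CPM in the control and 0.0378 CPM in the Foxn11089/1089 library. The exact lower limit of the ratio to the control was 55.7. That of the ratio to the Foxn11089/1089 library was 161. Outside the Epcam gate Shh had 5 UMIs among all other kept cells of the library labelled Tbx1neo2/neo2, 4 of them in the remaining cells that passed no gate and 1 in Ptprc-positive cells, and 0 in red blood cells, the class used here as a measure of free RNA because it should lack these genes.

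The receptors and the binding protein had broader patterns. Smo, the signal transducer that Patched holds in check, was detected in all 4 gates, and in every gate its lowest level was in the control library and its highest in the library labelled Tbx1neo2/neo2. Its levels in control, Tbx1neo2/neo2 and Foxn11089/1089 were 37.6, 98.7 and 69.0 CPM in Pdgfra-positive cells, 27.2, 61.0 and 49.2 in Epcam-positive cells, 16.1, 49.9 and 34.1 in Cdh5-positive cells, and 16.3, 41.7 and 22.6 in Ptprc-positive cells. Pdgfra-positive cells had the highest Smo level in each library, but the ranges of the 4 gates over libraries overlapped. Red blood cells held 0.556, 1.97 and 5.01 CPM of Smo.

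Ptch1, the receptor and a target of the pathway, was at 2.81, 10.3 and 4.79 CPM in Epcam-positive cells and at 4.03, 19.9 and 4.57 CPM in Pdgfra-positive cells. In both gates the library labelled Tbx1neo2/neo2 was highest. Cdh5-positive cells held 13.6, 20.7 and 11.5 CPM on 11 to 72 UMIs, so that endothelial cells had the highest Ptch1 level of the 4 gates in the control and Foxn11089/1089 libraries, with intervals that overlapped those of Ptprc-positive cells. In the library labelled Tbx1neo2/neo2 the endothelial level, 20.7 CPM (16.2 to 26.0), did not differ beyond counting error from the mesenchymal level, 19.9 CPM (18.5 to 21.4). Ptprc-positive cells held 6.90, 7.08 and 7.39 CPM, nearly the same in the 3 libraries, with overlapping intervals. Red blood cells held 0.278, 1.83 and 1.45 CPM.

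Hhip, which encodes a membrane protein that binds and sequesters Hedgehog ligands, had 50, 106 and 412 UMIs in Epcam-positive cells, or 1.48, 2.49 and 4.22 CPM. In Pdgfra-positive cells it had 0, 174 and 3 UMIs, or 0, 4.68 and 0.0863 CPM. Mesenchymal Hhip was thus counted almost wholly in the library labelled Tbx1neo2/neo2. In Cdh5-positive and Ptprc-positive cells it had at most 4 UMIs in a library, and in red blood cells 0, 0.281 and 0.221 CPM.

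The 3 GLI factors were mostly those of epithelium and mesenchyme. Gli1, an activator that is itself induced by the pathway, was at 1.49, 8.93 and 2.10 CPM in Pdgfra-positive cells on 10, 332 and 73 UMIs, and at 0.0295, 0.282 and 0.184 CPM in Epcam-positive cells on 1, 12 and 18 UMIs. The epithelial level of Gli1 lay at or below that of red blood cells of the same library in the library labelled Tbx1neo2/neo2 (0.562 CPM), and its interval overlapped that of red blood cells in the Foxn11089/1089 library (0.158 CPM), so it is read here as background. Gli2, the main activator of the pathway before Gli1 is induced, was at 9.45, 12.4 and 8.94 CPM in Epcam-positive and 12.7, 19.6 and 13.7 CPM in Pdgfra-positive cells. Gli3, which acts largely as a repressor when no ligand is bound, was at 16.7, 36.1 and 34.0 CPM in Epcam-positive and 17.3, 46.1 and 36.3 CPM in Pdgfra-positive cells. In Cdh5-positive cells Gli2 had 0, 1 and 5 UMIs and Gli1 had 0, 0 and 2, while Gli3 had 1, 45 and 72 UMIs, or 1.24, 12.9 and 13.6 CPM. In Ptprc-positive cells each GLI factor was under 1 CPM in every library.

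**Figure D1:**
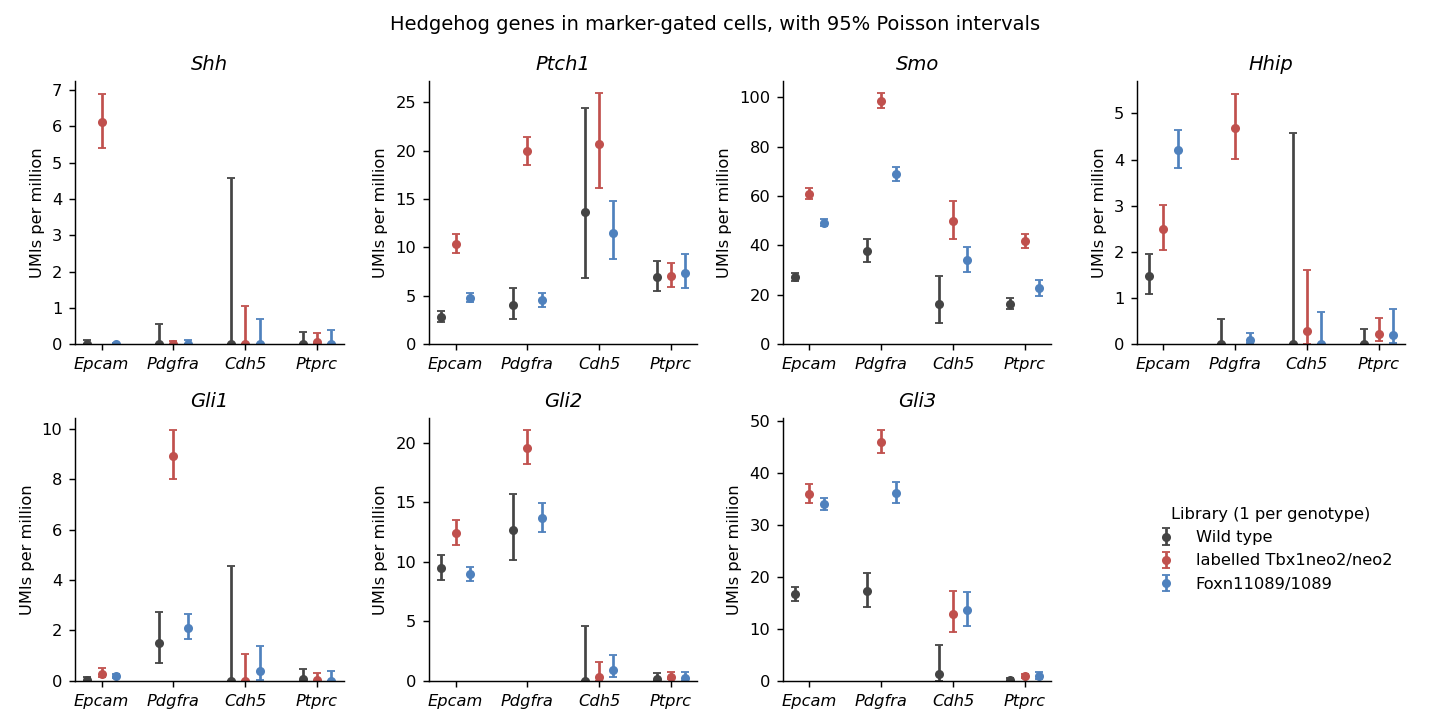
Level of each of the 7 Hedgehog genes (UMIs per 1000000, the CPM of the text, on linear axes that differ between panels) in the 4 marker gates named on the horizontal axis, with points for the 3 libraries and exact 95% Poisson intervals. Shh reaches 6.11 CPM in Epcam-positive cells of the library labelled Tbx1neo2/neo2 and 0.0549 CPM, on 1 UMI, in its Ptprc-positive cells, and Gli1 has its highest level, 8.93 CPM, in Pdgfra-positive cells of that library.

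In Pdgfra-positive mesenchyme of the library labelled Tbx1neo2/neo2 the targets Ptch1, Gli1 and Hhip were higher than in the control. Genes were compared if they had at least 30 UMIs over both sides, and a gene was counted as past 2-fold if its log2 ratio lay more than 1 from the median log2 ratio of all genes compared, which was 0.37 here. Of the 7 members 6 could be compared, since Shh had 0 UMIs on both sides, and 5 of the 6 were past 2-fold, all higher. Over all 13402 genes compared 17.8% were past 2-fold, and 9.22% were past it on the higher side. In the control Ptch1, Gli1 and Hhip had 27, 10 and 0 UMIs, so that they reached the minimum only with the UMIs of the library where they were high, and the count of 5 is a description. Smo, Gli2 and Gli3 had more than 30 UMIs on each side, and 2 of these 3 were past 2-fold.

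Ptch1 was 4.94-fold higher (3.37 to 7.55) in this mesenchyme than in the control, a log2 ratio of 1.94 above the median of all genes. Gli1 was 5.98-fold higher (3.21 to 12.6), or 2.21 above the median. Hhip was 10.4-fold higher with the control count of 0 taken as 3 UMIs, and the exact lower limit of the ratio was 8.41. These 3 are the genes commonly read as targets of GLI activity. Smo was 2.62-fold higher (2.31 to 2.99) and Gli3 2.66-fold (2.20 to 3.24), which placed them 1.02 and 1.04 above the median, just past the limit of 1, with relative intervals that reached below it. Gli2 was 1.54-fold higher (1.23 to 1.96), or 0.26 above the median, and was not past 2-fold.

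Mesenchyme of the Foxn11089/1089 library did not show the Ptch1 and Gli1 differences, while Smo and Gli3 lay on the higher side there too. Of the 7 members 5 could be compared and 0 were past 2-fold, against 9.90% of 12930 genes. Ptch1 was 1.14-fold the control (0.751 to 1.78) and Gli1 1.41-fold (0.723 to 3.06), which leaves room for changes of either direction. Smo was 1.83-fold higher and Gli3 2.09-fold higher, 0.68 and 0.87 above the median of all genes, which was 0.19. The relative intervals of Smo and Gli3 overlapped those in the library labelled Tbx1neo2/neo2, so their calls differed only by the limit of 1. The mutant libraries share the control, so each was also set against the other. Mesenchymal Ptch1 was 4.36-fold higher (3.67 to 5.20) in the library labelled Tbx1neo2/neo2 than in the Foxn11089/1089 library, Gli1 4.25-fold (3.29 to 5.55) and Hhip 54.2-fold (18.2 to 265), while Smo, Gli2 and Gli3 differed by 1.27- to 1.43-fold. The median log2 ratio of all genes between these libraries was 0.14.

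Depth alone changes the share of cells with a UMI. The library labelled Tbx1neo2/neo2 stayed highest after every cell was thinned to 5000 UMIs, which left out 39, 11 and 30 cells. Unthinned, 3.94%, 29.0% and 6.27% of Pdgfra-positive cells had a Ptch1 UMI in the control, Tbx1neo2/neo2 and Foxn11089/1089 libraries, and 1.36%, 17.1% and 3.04% a Gli1 UMI, at median depths of 9477.5, 25687 and 14390 UMIs. Thinned, the shares with Ptch1 were 1.93%, 8.30% and 2.21% and those with Gli1 were 0.805%, 4.53% and 1.15%. Thinned red blood cells, with median depths of 8299.5, 18670 and 12935 UMIs before thinning, had 0.364%, 0.286% and 0.185% with Ptch1 and 0%, 0.286% and 0% with Gli1.

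**Figure D2:**
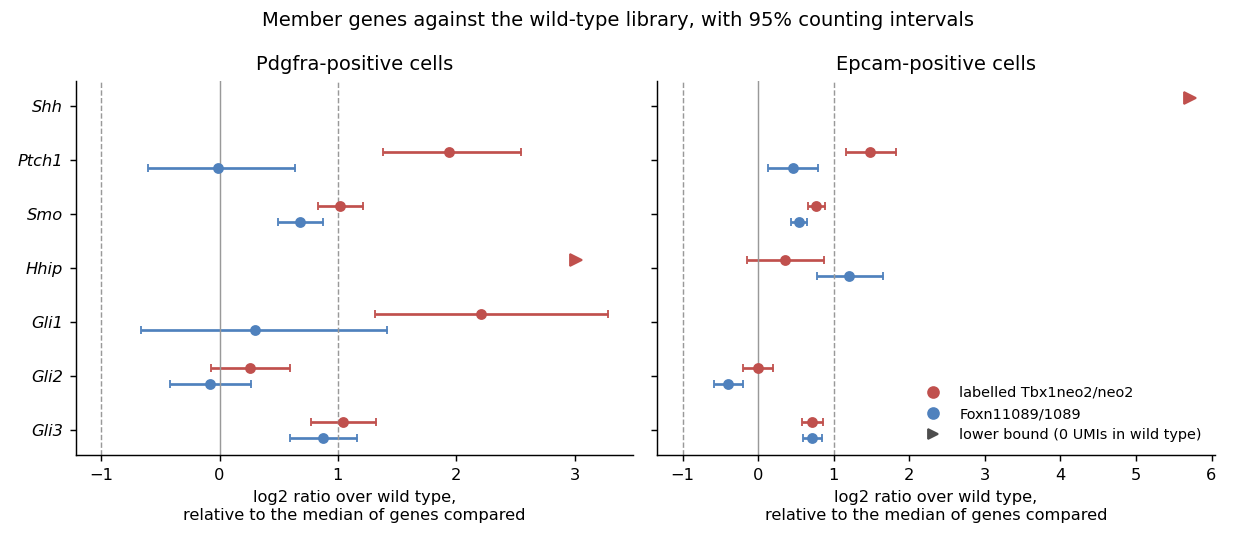
Log2 ratio of each member to the control, less the median over all genes compared, with exact 95% intervals, dashed lines at the 2-fold limits and arrowheads for lower bounds. In Pdgfra-positive cells of the library labelled Tbx1neo2/neo2 5 members lie above 1 and Gli2 lies at 0.26, and no member compared does so in Pdgfra-positive cells of the Foxn11089/1089 library.

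Within the mesenchyme of the library labelled Tbx1neo2/neo2 the targets were not spread evenly. Cells with at least 2 UMIs of Foxf1, a forkhead factor of visceral and airway mesenchyme that is a known Hedgehog target, were compared with cells that had 0. The 88 Foxf1 cells held 33.7 CPM of Hhip against 1.78 in the 1128 cells without, a 19.0-fold difference (13.5 to 26.9). Ptch1 was at 45.6 against 16.1 CPM, 2.84-fold, and Gli1 at 17.5 against 7.13 CPM, 2.46-fold. Smo and Gli2 differed little, at 108 against 98.4 CPM and 18.9 against 19.5 CPM, with intervals of the ratio that held 1. The control had 1 such Foxf1 cell among Pdgfra-positive cells and the Foxn11089/1089 library 8, so Foxf1 cells went with the library. Foxf1 itself was at 1.34 CPM in control mesenchyme and 15.8 in that of the library labelled Tbx1neo2/neo2, and it was 11.9-fold higher (8.84 to 16.5) there than in the Foxn11089/1089 library.

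Sox9, a factor of cartilage and airway mesenchyme, marked a larger group. In the library labelled Tbx1neo2/neo2 449 Pdgfra-positive cells had at least 2 Sox9 UMIs, and they held 9.10 times the Hhip, 2.66 times the Gli1 (14.9 against 5.59 CPM), 2.14 times the Ptch1 (30.4 against 14.2 CPM) and 2.07 times the Gli3 (66.8 against 32.3 CPM) of the 702 cells with 0. The 367 Sox9 cells of the Foxn11089/1089 library held 4.46 CPM of Ptch1 against 4.63 in the 1448 without. Sox9 thus went with higher Ptch1 in 1 library and not in the other.

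Other partner genes went with higher levels of 1 target and lower levels of another, or with lower levels only. Cells with Acta2, the actin of smooth muscle, held 2.03 times the Hhip but 0.722 times the Ptch1 and 0.311 times the Gli1 of cells without it in the library labelled Tbx1neo2/neo2. Cells with Aldh1a2, an enzyme of retinoic acid synthesis, held 0.493 times the Ptch1 and 0.389 times the Hhip. Aldh1a2 cells of the Foxn11089/1089 library held 0.281 times the Gli1. The 38 cells with Myh11, the smooth muscle myosin, a split made after the data had been seen, held 9.21 times the Hhip (6.59 to 12.8) but 0.467 times the Gli1, with an interval wholly under 1, of cells without it in the library labelled Tbx1neo2/neo2. For the cycle gene Top2a the ratios of the 3 targets were 0.989 to 1.34 there, each with an interval that held 1.

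The 73 Pdgfra-positive cells with a Hhip UMI in the library labelled Tbx1neo2/neo2, with up to 31 UMIs in a cell, were led by genes of contractile cells. By a list drawn up after the values had been seen, the genes with the highest ratio to cells without Hhip were Myh11 (191 against 7.74 CPM), Actg2 (247 against 21.3), Actc1, Mylk, Foxf1 (102 against 10.2), Cnn1, Wif1, Matn4, Pcp4 and Col2a1. Myh11, Actg2, Mylk and Cnn1 encode parts of the smooth muscle contractile machinery, and Matn4 and Col2a1 cartilage matrix proteins. The pericyte and smooth muscle list (Rgs5, Acta2, Tagln, Myl9 and Notch3) summed to 343, 1018 and 303 CPM over Pdgfra-positive cells of the 3 libraries, and the cartilage list (Sox9, Col2a1, Acan and Matn1) to 37.3, 130 and 44.5 CPM, with Acan at 0 in the control and Foxn11089/1089 libraries and Matn1 at 0 in the control and the library labelled Tbx1neo2/neo2. The part of these cells in the mesenchymal differences was measured by leaving cells out. Without cells that had a Foxf1 UMI, Ptch1, Gli1 and Smo stayed 1.62, 1.88 and 1.02 above the median and 4 members were past 2-fold. Without cells that had a Foxf1 or Sox9 UMI, Ptch1 and Gli1 were at 1.59 and 1.98, and 2 members were past 2-fold. Hhip was then at 0.78, with its control 0 taken as 3 UMIs.

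Gli1 cells in the mesenchyme shared other genes in both mutant libraries. There were 9, 229 and 67 Pdgfra-positive cells with a Gli1 UMI, and the control had too few to list. The genes with the highest ratio to cells without Gli1, by the smaller of the ratios in the 2 mutant libraries, were Otor, Cldn11, Cxcl13, Fam46a, Foxd1, St8sia2, Fxyd7, Mpped2, Rspo2 and Nusap1. Otor, which encodes a secreted protein known from the inner ear, was at 57.9 against 14.6 CPM in the library labelled Tbx1neo2/neo2 and at 47.4 against 4.42 CPM in the Foxn11089/1089 library. Cxcl13, a chemokine for lymphocytes, was at 113 against 40.0 and 39.0 against 15.0 CPM. Foxd1, a forkhead factor of stroma, was at 33.5 against 16.3 and 31.6 against 14.2 CPM.

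The cells that passed no gate showed differences in the same direction in the library labelled Tbx1neo2/neo2. They are a mixture that held markers of several cell types, with a median of 1386 UMIs. Among these remaining cells, 81 had at least 2 Foxf1 UMIs, a split made after the data had been seen. They held 93.3 CPM of Ptch1 against 14.0 in the 2479 cells without Foxf1, 84.2 against 0.638 CPM of Hhip, and 24.7 against 3.71 CPM of Gli1. These Foxf1 cells held 157 of the 177 Hhip UMIs of the remaining cells. The highest count in 1 of them was 60, so their Hhip level leans on that cell. Counted over the whole library, 66.0% of Gli1 UMIs were in Pdgfra-positive and 30.6% in remaining cells, while 37.5% of Hhip UMIs were in Pdgfra-positive, 38.1% in remaining and 22.8% in Epcam-positive cells.

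**Figure D3:**
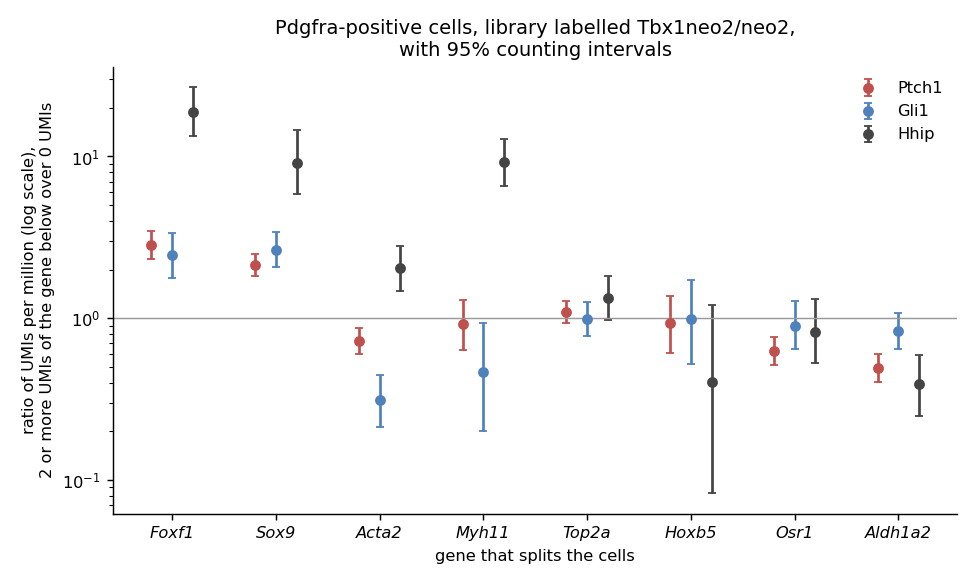
Ratio (log axis, exact 95% intervals) of the level of Ptch1, Gli1 and Hhip in Pdgfra-positive cells of the library labelled Tbx1neo2/neo2 with at least 2 UMIs of the gene named on the horizontal axis to that in cells with 0. Foxf1 and Sox9 cells lie above 1 for all 3 targets, with Hhip at 19.0 and 9.10, while Myh11 cells lie above 1 for Hhip only.

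In Epcam-positive cells of the library labelled Tbx1neo2/neo2, 6 members could be compared with the control and 2 were past 2-fold, against 17.3% of 14157 genes. These were Shh and Ptch1. Shh lay 5.71 above the median log2 ratio of all genes (0.40) with its control 0 taken as 3 UMIs, with an exact lower limit of 5.40. Ptch1 was 3.69-fold higher (2.95 to 4.65) and 1.48 above the median. Smo was 2.24-fold higher, Gli3 2.17-fold and Hhip 1.69-fold, which placed them 0.77, 0.72 and 0.36 above the median. Gli2 was 1.32-fold higher and lay at the median. Gli1, with 12 and 1 UMIs, was too low to compare. Shh, with 0 UMIs in the control, reached the minimum only through the library where it was high, so its place in the count was fixed by the minimum.

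Shh came from a small group of epithelial cells. Of the 809 Epcam-positive cells, 56 had a Shh UMI, 6.92% (5.27 to 8.90), and 48 of these had at least 2, with a highest count of 25 in a cell. By its exact interval, the count of 0 in the other libraries allows a share of up to 0.186% of cells in the control and 0.0928% in the Foxn11089/1089 library. In thinned cells the share in the library labelled Tbx1neo2/neo2 was 1.92%. The Shh cells were not deeper than the others, with a median of 40634 UMIs against 46330, and 1 of the 56 was among the likely doublets.

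These 56 cells carried transcription factors of foregut endoderm and little of the thymic ones. At least 2 UMIs of Sox2 were found in 54 of them, of Nkx2-1 in 54 and of Foxa2 in 53, and of Krt5 in 0, Foxn1 in 2 and Pax8 in 2. Sox2, Foxa2 and Nkx2-1 are transcription factors of the ventral foregut that buds into trachea and lung. Conversely, 83.1% of the 65 cells with Sox2 and 88.3% of the 60 cells with Foxa2 had a Shh UMI, and the 58 cells with both held 257 of the 260 Shh UMIs. The control library had 1 Epcam-positive cell with both and the Foxn11089/1089 library 0. The genes with the highest ratio to cells without Shh were Sox2 (379 against 1.77 CPM), Nr2f2 (668 against 12.8), Foxa2 (226 against 1.29), S100a6, Igfbp5, Foxa1 (206 against 1.52), Wnt7b, Arl4c, Myh14 and Anxa1. Sox21, a factor of airway epithelium, was at 81.7 against 0.985 CPM. Other genes of the airway, lung and gut tube list were lower in these cells, with Trp63 at 42.2 against 89.9, Sox9 at 22.8 against 67.1 and Etv5 at 12.1 against 34.1 CPM, Cldn18 was at 0.670 against 0 CPM, and Sftpc, the surfactant gene of the lung tip, was at 0. Of the thymic factors, Foxn1 was at 8.71 against 113 CPM and Pax9 at 11.4 against 137 CPM. The whole list summed to 142, 339 and 261 CPM over Epcam-positive cells of the 3 libraries, with 8, 10 and 7 of its 10 markers detected, Sftpc and Cldn18 at 0 in the control, and these and Foxa2 at 0 in the Foxn11089/1089 library.

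Ptch1 was high in these cells and in a separate group of Nkx2-1 cells. The split was made after the data had been seen, on at least 2 UMIs of each gene. The 55 cells with Nkx2-1 and Foxa2 but no Pax8 call held 90.9 CPM of Shh and 28.1 CPM of Ptch1 (22.2 to 35.1). The 101 cells with Nkx2-1 and Pax8, the pair that marks thyroid epithelium, held 0.153 CPM of Shh on 1 UMI and 30.4 CPM of Ptch1 (26.3 to 34.9). The 643 cells with fewer than 2 Nkx2-1 UMIs held 0.183 CPM of Shh and 4.48 CPM of Ptch1 (3.79 to 5.27). Thus the intervals of Ptch1 overlapped between the Shh-bearing and the Pax8 cells, and the rest held less.

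The GLI factors set the groups apart as well. Gli2 was at 0.730 CPM in the Foxa2 cells, 5.96 in the Pax8 cells and 14.8 in the cells without Nkx2-1. Gli3 was at 32.1, 5.35 and 42.7 CPM, and was lower in the Pax8 cells than in either other group. Gli1 was at 0.365, 0 and 0.305 CPM on 1, 0 and 10 UMIs, so the high Ptch1 of the Nkx2-1 cells had no counterpart in Gli1. Hhip was at 5.11, 1.38 and 2.50 CPM, and Smo at 78.8, 63.4 and 58.7 CPM. Tbx1 was at 59.9 CPM in the Foxa2 cells and 0.306 in the Pax8 cells, so that 164 of the 227 Tbx1 UMIs of the gate lay in the 55 Foxa2 cells.

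Nkx2-1 cells numbered 4, 166 and 9 among the Epcam-positive cells of the 3 libraries, and the Epcam differences rested on them. Without them Ptch1 was 0.32 above the median, Shh 0.69 with the control at its limit, and Gli3, just past the limit of 1, was the 1 member past 2-fold.

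**Figure D4:**
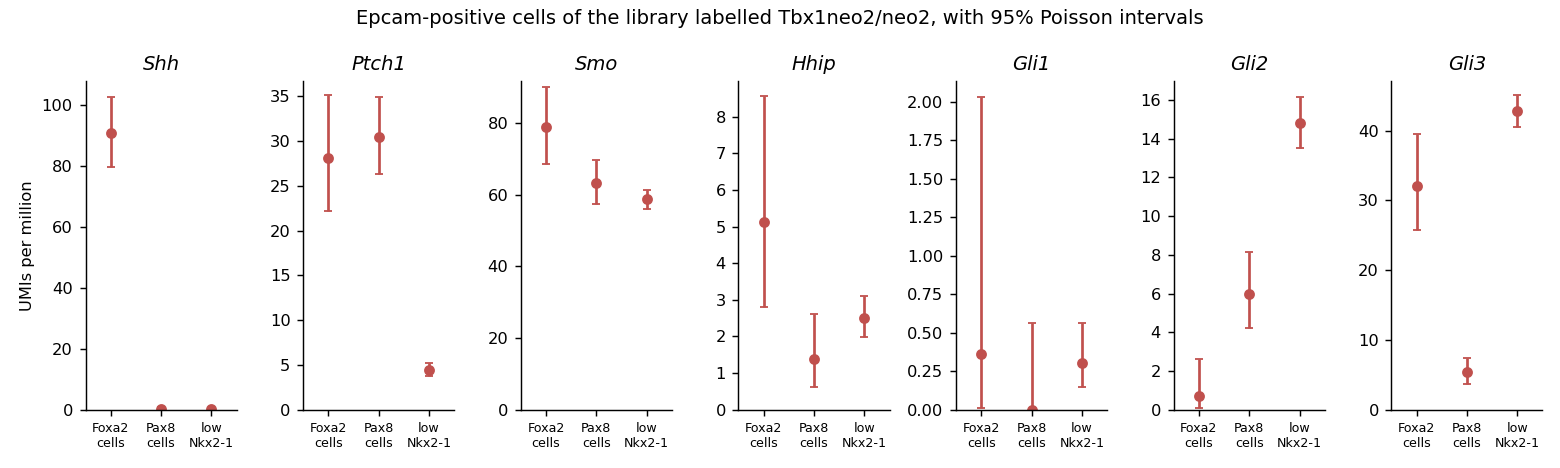
Levels (CPM, exact 95% intervals) on linear axes of the 7 genes in Epcam-positive cells of the library labelled Tbx1neo2/neo2, for Nkx2-1 cells with Foxa2 or with Pax8 and for cells with fewer than 2 Nkx2-1 UMIs. Shh is at 90.9 CPM in the 55 Foxa2 cells and 0.153 in the 101 Pax8 cells, while Ptch1 is at 28.1 and 30.4 CPM in them and 4.48 in cells without Nkx2-1.

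Among Epcam-positive cells Gli2 and Gli3 were compared by Foxn1 and by Krt5, with Pth-high cells (at least 10 Pth UMIs, described further on) and Nkx2-1 cells left out, a choice made after the data had been seen. The 534 cells with at least 2 Foxn1 UMIs in the library labelled Tbx1neo2/neo2 held 43.5 CPM of Gli3 against 33.2 in the 68 with 0, a 1.31-fold difference (1.01 to 1.73). The Gli2 difference there was 1.09-fold (0.724 to 1.72), within counting error. Foxn1 cells of the Foxn11089/1089 library held 1.32 times the Gli3 (1.18 to 1.47) and 1.30 times the Gli2 (1.06 to 1.62) of cells without. In the control the differences were 1.20-fold for Gli3 (0.979 to 1.47) and 1.12-fold for Gli2 (0.856 to 1.47), within counting error. With all Epcam-positive cells kept, the folds in the library labelled Tbx1neo2/neo2 were 2.63 for Gli3 and 2.50 for Gli2, and 222 cells in place of 68 had 0 Foxn1 UMIs. Krt5 cells held less of both factors than cells without Krt5. Their Gli3 was at 11.6 against 18.7 CPM in the control, 38.9 against 45.0 in the library labelled Tbx1neo2/neo2 and 29.0 against 37.9 in the Foxn11089/1089 library, and their Gli2 was 0.747, 0.677 and 0.582 times that of cells without. With all Epcam-positive cells kept, Krt5 cells of the library labelled Tbx1neo2/neo2 held slightly more Gli3, at 38.6 against 34.1 CPM. Over all Epcam-positive cells, the ratio of Smo between cells with and without Foxn1, Krt5, Trp63 or the cycle gene Top2a ran from 0.862 to 1.08 over the 3 libraries.

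Epcam-positive cells of the Foxn11089/1089 library had 5 members that could be compared with the control, and 1 was past 2-fold, against 23.9% of 15084 genes. The count stands near the background, so the member is named by its value only. It was Hhip, 2.86-fold higher (2.13 to 3.91) and 1.20 above the median of 0.32. Ptch1 was 1.71-fold higher, Smo 1.81-fold and Gli3 2.04-fold, or 0.46, 0.54 and 0.72 above the median, and Gli2 was 0.947-fold the control, 0.39 below the median. The Hhip difference rested on Pth-high cells, described next. With Pth-high cells left out of both libraries, Hhip was 3.46 below the median on the log2 scale and lower than in the control.

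Pth-high cells are Epcam-positive cells with at least 10 UMIs of Pth, the parathyroid hormone gene. They numbered 27 in the control, 0 in the library labelled Tbx1neo2/neo2 and 355 in the Foxn11089/1089 library. Free Pth RNA was widespread in the latter, where 2616 of 3974 Epcam-positive and 1192 Pdgfra-positive cells had at least 1 Pth UMI, which is why 1 UMI was not used. With a minimum of 50 UMIs 26 and 326 cells remained. The label was checked on other parathyroid genes. Gcm2, the transcription factor that defines the parathyroid, was at 180 CPM in Pth-high cells against 0.119 in the other Epcam-positive cells of the control, and at 297 against 0.637 in the Foxn11089/1089 library. Casr, the calcium-sensing receptor, was at 112 against 0.745 and 69.7 against 0.578 CPM. Foxn1 was lower, at 15.6 against 85.4 and 20.5 against 169 CPM. Likely doublets made up 5 of the 27 and 86 of the 355 cells.

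Hhip was high in Pth-high cells of both libraries. In the control, 9 UMIs in 27 cells gave 28.0 CPM (12.8 to 53.1), against 41 UMIs and 1.22 CPM (0.877 to 1.66) in the other 1953 Epcam-positive cells. In the Foxn11089/1089 library, 401 UMIs in 355 cells gave 31.0 CPM (28.1 to 34.2), against 11 UMIs and 0.130 CPM (0.0648 to 0.232) in the other 3619 cells. The intervals of the level in Pth-high cells thus overlapped between the 2 libraries, and the fold, 22.9 (9.79 to 47.8) and 239 (132 to 483), differed by the level in the other epithelium. Pth-high cells held 97.3% of the Hhip UMIs of Epcam-positive cells in the Foxn11089/1089 library and 18.0% in the control. The 11 UMIs in other cells of the Foxn11089/1089 library lay at the level of red blood cells there, 0.221 CPM.

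Ptch1 was higher in the same cells. It was at 18.7 against 2.65 CPM in the control, on 6 and 89 UMIs, and at 14.5 (12.5 to 16.8) against 3.30 CPM (2.93 to 3.71) in the Foxn11089/1089 library, on 188 and 280 UMIs. The folds were 7.03 (2.51 to 15.9) and 4.40 (3.64 to 5.32). Gli1, the remaining target, was not higher, with 0 UMIs in the 27 control cells and 2 UMIs, both in 1 cell, in the 355 cells of the Foxn11089/1089 library, or 0.155 CPM against 0.189 in the others. Shh had 0 UMIs in all of them.

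Gli2 and Gli3 were lower in Pth-high cells of the Foxn11089/1089 library, while the control had too few UMIs to show a direction. Gli2 was at 4.95 against 9.55 CPM in the Foxn11089/1089 library, a fold of 0.518 (0.395 to 0.669), and had 0 UMIs in the 27 control cells, where 320 were counted in the others. That 0 allows up to 11.5 CPM by its exact interval, above the 9.54 CPM of the other cells, so a difference was not detectable at this depth. Gli3 was at 23.0 against 35.7 CPM in the Foxn11089/1089 library, a fold of 0.643 (0.569 to 0.725). In the control it was at 12.4 against 16.7 CPM, on 4 UMIs, a fold of 0.745 (0.202 to 1.92), within counting error. Smo was at 58.3 against 47.8 CPM in the Foxn11089/1089 library. In the control Smo was at 40.4 against 27.0 CPM, with an interval of the fold that held 1 (0.793 to 2.57). Read against all genes, 2 of the 5 members compared were past 2-fold in the control, Ptch1 and Hhip, where 34.0% of 12580 genes were. In the Foxn11089/1089 library 3 of 5 were past it, Ptch1 and Hhip higher and Gli2 lower (1.18 below the median), where 33.6% of 14575 genes were. Those shares are high, so the counts of members stand near the background while the size of the Hhip ratio, 7.67 above the median on the log2 scale, is the measured difference.

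Hhip and Ptch1 were seen in many but not all Pth-high cells of the Foxn11089/1089 library. A Hhip UMI was found in 129 of the 355 cells, 36.3% (31.3 to 41.6), a Ptch1 UMI in 114, both in 62 and neither in 174. In other Epcam-positive cells 0.221% had Hhip, with median depths of 23997 and 20658 UMIs. Thinned to 5000 UMIs, the Hhip shares were 12.1% and 0.0584%, against 0.0926% of thinned red blood cells.

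**Figure D5:**
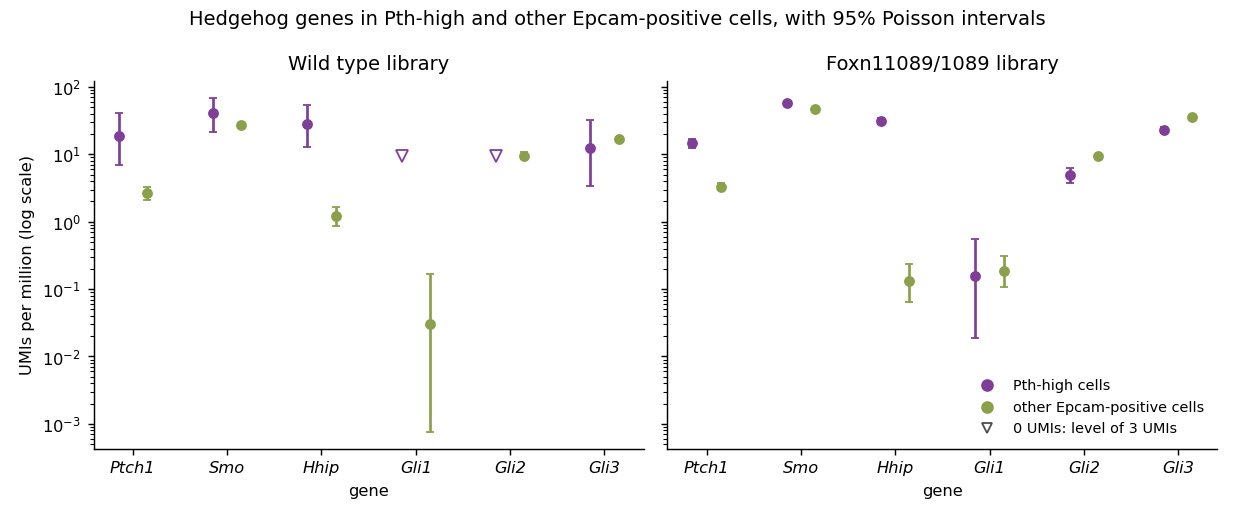
Levels (CPM, log axis, exact 95% intervals) of 6 members, Shh being at 0, in Pth-high and other Epcam-positive cells of the control and Foxn11089/1089 libraries. Open triangles lie at the level of 3 UMIs where 0 were counted. Hhip is at 28.0 and 31.0 CPM in Pth-high cells against 1.22 and 0.130 in the others, and Ptch1 at 18.7 and 14.5 against 2.65 and 3.30.

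Outside Pth-high cells, epithelial Hhip belonged to keratin 5 cells in the control. Other Epcam-positive cells held 1.22, 2.49 and 0.130 CPM of Hhip in the 3 libraries, in 37, 56 and 8 cells. The choice of Krt5, which marks medullary thymic epithelium and its precursors, was made after the values had been seen. In the control the 507 Krt5 cells held 36 of these UMIs (4.29 CPM) and the 1249 cells without Krt5 held 2 (0.0916 CPM), a ratio of 46.8 (12.1 to 401). In the library labelled Tbx1neo2/neo2 the ratio was 1.78 (1.19 to 2.69), at 3.92 CPM in 267 Krt5 cells against 2.20 in 427 cells without. In the Foxn11089/1089 library 685 Krt5 cells held 0 Hhip UMIs. The genes with the highest ratio between Hhip cells and the rest, in both the control and the library labelled Tbx1neo2/neo2, were Krt5 (3984 against 553 CPM in the control), Krt17, Cxcl10, Serpinb1a, S100a14, Il4i1, H2-Eb1, S100a16, Vcam1 and Fxyd2. H2-Eb1, which encodes a chain of MHC class II, was at 784 against 115 CPM in the control and 249 against 59.1 CPM in the library labelled Tbx1neo2/neo2.

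The other genes of the pathway were followed as a list of 31 genes outside the members. In Pdgfra-positive cells of the library labelled Tbx1neo2/neo2, 26 could be compared and 5 were past 2-fold higher and 0 lower, against 9.22% and 8.60% of all genes compared. These were Scube1 and Gpr161, Evc, Foxf1 and the cyclin gene Ccnd1, the last at 150 against 25.5 CPM. Gpr161, with 21 UMIs in the control, and Foxf1 reached the minimum only with the UMIs of the library where they were high. The count of 5 is therefore a description. Scube1 encodes a secreted helper of ligand spread, Gpr161 a ciliary receptor that restrains the pathway, and Evc a ciliary partner of Smoothened. The list's median was 0.47 above that of all genes. In those of the Foxn11089/1089 library 0 of 25 were higher and 1 was lower, against 3.90% and 6.00% of all genes. This was Prkaca, the catalytic subunit of protein kinase A, at 56.3 against 103 CPM.

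In Epcam-positive cells 9 of 26 were past 2-fold higher and 0 lower in the library labelled Tbx1neo2/neo2, where 7.08% of all genes were higher and 10.2% lower. They were Scube1, Scube3, Kif7, Gpr161, Evc, Foxf1, Ccnd1, Mycn and Tbx1. In the control Scube1, Scube3, Foxf1 and Tbx1 had 8, 23, 1 and 29 UMIs. Those genes reached the minimum only with the UMIs of the library where they were high, so the count of 9 is a description. Ccnd1 was at 61.7 against 17.3 CPM and Mycn at 18.1 against 5.46 CPM. In the Foxn11089/1089 library 9 of 26 were higher and 4 lower, where 12.4% of all genes were higher and 11.6% lower. The higher ones were Scube1, Scube3, Gas1, Kif7, Gpr161, Foxf1, Foxc2, Osr1 and Tbx1, and the lower ones Hhat, Scube2, Prkaca and Mycn. Scube1, Scube3, Foxf1 and Tbx1 again reached the minimum only through the library where they were high, as did Foxc2, with 15 control UMIs. Scube2 had 21 UMIs in the Foxn11089/1089 library and 32 in the control. The counts of 9 and 4 are thus also a description. Gas1, a co-receptor that helps the ligand reach Patched, was at 237 against 62.3 CPM. Mesenchymal markers moved with it, with the mesenchymal list (Pdgfra, Col1a2, Col3a1, Twist1 and Prrx1) at 44.3, 99.2 and 157 CPM in Epcam-positive cells of the 3 libraries and all 5 markers detected in each, and the part of free RNA in these values was not tested.

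In Pth-high cells of the Foxn11089/1089 library 6 of 25 listed genes were past 2-fold higher than in other Epcam-positive cells, and 4 were lower, where 16.9% of all genes were higher and 16.7% lower, so the counts stand near the background and the genes are named by their values only. The higher ones were Hhat, Scube3, Sufu, Foxf1, Bcl2 and Tbx1. Tbx1 was at 39.9 against 2.71 CPM, Scube3 at 20.1 against 2.55 and Bcl2, a survival gene, at 45.0 against 13.2. Sufu, an inhibitor that holds GLI proteins in the cytoplasm, was at 19.4 against 7.53 CPM. The lower ones were Disp1, Scube1, Gas1 and Foxc2, with Disp1, the transporter that releases the ligand, at 5.72 against 19.8 CPM and Gas1 at 60.3 against 264 CPM. In the control 3 of 21 were higher, Cdon, Sufu and Prkaca, on 5 to 45 UMIs, and 2 lower, Disp1 and Gas1, where 22.1% of all genes were higher and 11.9% lower. The control counts thus also stand near the background. Sufu was past 2-fold higher, and Disp1 and Gas1 past 2-fold lower, in both libraries. How many of all genes went past 2-fold the same way in both was not counted, so this overlap is a description.

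Over the 12 sums of 4 gates and 3 libraries, the members did not all follow 1 pattern. As a description, the highest Pearson correlations of log2(CPM + 1) between members were 0.86 for Gli2 with Gli3 and 0.81 for Smo with Gli3. All pairs among Smo, Hhip, Gli1, Gli2 and Gli3 were positive, from 0.38 to 0.86, while Ptch1 had at most 0.22 with any other member. The sums are not independent, since gates share a library, its depth and its free RNA. Shh was at 0 in 10 of the 12 sums and near 0 in another, so its correlation rests on 1 sum and any gene high there alone scores close to 1, as did Iyd, Foxa2 and Gm12446 (0.99 each). Among 13514 genes the most alike of the other members were Pip5k1a, Pip5k1c and Pgam5 for Ptch1 (0.90, 0.88 and 0.87), and Pskh1, Fbxo18 and Alg2 for Smo (0.97 to 0.98). They were Abca8a, Shisa9 and Dpt for Gli1 (0.98 each), Lgi2, Egfr and Scara3 for Gli2 (0.99 each), and Vash2, Zfp454 and Rraga for Gli3 (0.98 to 0.99).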

How the data were processed

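The authors aligned the reads to mm10 with Cell Ranger 3.0.0, per the labels, and deposited raw UMI counts per gene and cell barcode, 1 matrix per library, without normalization. Seurat was also named by the authors, and no cluster label was used here. A barcode was kept if it had 200 or more genes and less than 20% of its UMIs on mitochondrial genes. Cells with at least 30% hemoglobin UMIs were set aside as red blood cells. Likely doublets, the highest Scrublet scores in scanpy 1.11.5, were not removed except in an alternative.

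Counts were summed per gate and library with Python 3.11.15, numpy 2.4.6, scipy 1.17.1, pandas 2.3.3 and anndata 0.12.19. Intervals are exact Poisson for a level, Clopper-Pearson for a share and conditional binomial for a ratio, at 95%. They cover counting error only, and a count of 0 was set to a limit of 3. In lists of genes by ratio, 10 CPM was added to both sides. The calculation of ratios was checked on simulated Poisson counts with known folds. These had no spread between cells or libraries beyond counting error, so they check the arithmetic only. Figures were drawn with matplotlib 3.10.9.

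The genes named are the 7 members and the listed pathway genes past 2-fold or above 5 CPM, those most alike over the 12 sums (for Hhip not reported here), and the 10 genes with the highest ratio in cells with Shh or Gli1. Members and lists were chosen with earlier results of these data known. Partners Myh11 and Ibsp in Pdgfra-positive cells, Foxa2 and Ccl21a in Epcam-positive cells, Foxf1, Acta2, Rgs5 and Sox10 in remaining cells, Krt5 in other Epcam-positive and Gja5 in Cdh5-positive cells, the epithelium without Pth-high and Nkx2-1 cells, and the lists for cells with Hhip or Dhh, were chosen after the values had been seen.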

Additional observations from a re-analysis of the deposited data

How the results depend on the processing

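No replicate exists, so no library could be left out, and depth limits the control most, where mesenchymal Gli1 rests on 10 UMIs and Pth-high Hhip on 9. Of 105 values of counts of members and thinned shares under the alternatives chosen at the outset, 88 stayed within 1.5 times or the interval and 17 moved, and of 411 values of single members 380 stayed, 30 moved and 1 reversed. That value was epithelial Hhip of the Foxn11089/1089 library, at -3.46 without Pth-high cells, which held most of it. Only members past 2-fold in the main setting could be counted as reversed, and other changes of sign were counted as stayed or moved. Mesenchymal Ptch1 of the Foxn11089/1089 library, near the median, kept its sign in 7 of 13 alternatives. Leaving out Pth-high and Nkx2-1 cells, added after seeing the data, turned the log2 ratio of Gli3 between cells with and without Krt5 in the library labelled Tbx1neo2/neo2 from 0.18 to -0.21. The count of members past 2-fold in Pdgfra-positive cells of the library labelled Tbx1neo2/neo2 was 5, and 3 with the mean of per-cell CPM. It was 2 without cells that had Foxf1 or Sox9, an alternative added after seeing the data. In those of the Foxn11089/1089 library it was 0, and 1 without the limit on other markers, 1 without centring on the median and 1 without a gene minimum. In Epcam-positive cells of the library labelled Tbx1neo2/neo2 it was 2, with 4 without centring and 1 without Nkx2-1 cells. In those of the Foxn11089/1089 library it was 1, with 0 without cells of cartilage, muscle or nerve, 2 without centring, 0 with the mean of per-cell CPM and 2 without a gene minimum. For Pth-high cells of the control it was 2, with 4, 0 and 5 under the mean of per-cell CPM, a minimum of 100 UMIs and no minimum. The members past it in both libraries were 2, and 0 at that minimum, which left neither to compare in the control. Thinning to 2000 UMIs in place of 5000 moved the ratio of shares to the control from 2.20 to 3.06 for mesenchymal Smo of the library labelled Tbx1neo2/neo2, from 1.53 to 1.99 for that of the Foxn11089/1089 library, and from 1.56 to 0.751 for its epithelial Ptch1. Beyond what each alternative leaves out, the cause was not tested. Mesenchymal Ptch1 of the library labelled Tbx1neo2/neo2 lay 1.49 to 2.31 above the median over 14 alternatives and Gli1 1.80 to 2.63, both past 2-fold in all 14, and Smo 0.98 to 1.39, past it in 11. Hhip of Pth-high cells lay 3.55 to 4.96 above it in the control and 6.72 to 8.34 in the Foxn11089/1089 library over 13 alternatives.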

Other observations

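Shh was not the only ligand counted. Dhh, which encodes Desert hedgehog, the ligand of endothelial and Schwann cells, had 1, 227 and 27 UMIs in Cdh5-positive cells of the control, Tbx1neo2/neo2 and Foxn11089/1089 libraries, or 1.24, 65.2 (57.0 to 74.2) and 5.11 CPM (3.37 to 7.43). It was found in 1, 53 and 7 cells of 50, 93 and 105. In the library labelled Tbx1neo2/neo2 the level was 52.5-fold that of the control (9.34 to 2084), on 1 control UMI, and 12.8-fold that of the Foxn11089/1089 library (8.53 to 19.8). Ptch1 in the same gate differed by 1.79-fold (1.26 to 2.56) between those libraries.

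The Dhh cells held high levels of Gja5 and Eln RNA. By a split chosen after the values had been seen, 38 cells with at least 2 UMIs of Gja5, a connexin of arterial endothelium, held 224 CPM of Dhh against 7.54 in 48 cells with 0. The genes with the highest ratio to Cdh5-positive cells without Dhh were Cytl1, Eln, Pdlim3, Fbln2, Htra1, Fbln5, Stmn2, Mfap5, Gja5 and Dkk2. Eln, which encodes elastin of the arterial wall, was at 5830.4 against 323 CPM. The paper lists Eln and Fbln5 among the top markers of its pericyte cluster, so they are not specific to endothelium. Among the cells that passed no gate, 42 with at least 2 UMIs of Sox10, a factor of neural crest and glia, held 98.5 CPM of Dhh against 0.376 in 2553 cells with 0. These Sox10 cells had 0 UMIs of Hhip and of Gli1.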
